A study of Mus musculus with 12 samples.

Results

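Endothelial marker genes are followed here in RNA of sorted mouse alveolar type II (ATII) cells. The 10 genes were Pecam1, Cdh5, Kdr, Cldn5, Vwf, Tek, Tie1, Egfl7, Eng and Emcn, out of 23238 gene symbols in the count tables, and they were picked by symbol with their values in these libraries already known. Every value of these 10 genes is therefore given as a description, and how many passed the threshold used for all genes is printed for reference only and supports nothing.

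Endothelial cells line the blood vessels, and in the alveolus the capillary endothelium lies against the epithelium to form the surface for gas exchange. The genes fall into 3 roles. Pecam1, Cdh5 (VE-cadherin) and Cldn5 encode proteins that hold neighbouring endothelial cells together. Kdr (VEGF receptor 2), Tek (Tie2), Tie1 and Eng (endoglin, a co-receptor for ligands of the TGF-β family) encode receptors of vessel growth and stability. Vwf encodes the clotting protein von Willebrand factor, Egfl7 a secreted factor of the vessel matrix, and Emcn (endomucin) a surface sialomucin.

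Each library came from 1 mouse, with 3 mice in each of 4 groups. The age given is 8 weeks for all 12 samples, controls included. Con mice were given PBS and BLM mice 4 mg/kg bleomycin, an agent that injures the lung, through the trachea. KO and KOBLM mice received PBS and bleomycin, respectively, and carried a p300 gene flanked at exon 9 by LoxP sites that Cre removes in cells with an active Spc promoter, after 10 mg/kg tamoxifen at 8 weeks of age. Spc is the surfactant protein C gene, so the deletion was directed to ATII cells and not to endothelial cells. The labels call the controls wild type and the study names them Spc-p300 f/f, and the labels carry the same tamoxifen text for all 12 samples, while a legend of the study names vehicle or tamoxifen for Spc-p300 f/f mice, so the treatment of the controls before PBS or bleomycin differs between these sources. Cells positive for both CD74 and EpCAM were sorted from perfused, dissociated lungs, and their RNA was sequenced from the 3′ end.

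The libraries held 7005005 to 11153154 counts, and CPM values are counts scaled to the total of each library. Rn45s, a ribosomal RNA gene, took 2.0% to 10.6% of these totals in Con and 9.3% to 17.4% in BLM. It took 3.7% to 21.6% in KO, with the most in KO 2, and 2.4% to 14.4% in KOBLM. Markers of the labelled cell type were present but did not lead: summed CPM of 12 ATII genes, led by Sftpa1, Sftpc and Napsa, ranged from 186 to 2252, while 17 macrophage genes, led by Chil3, Ctss and Lyz2, summed to 11657 to 45061 in 11 libraries and to 1307 in BLM 3. BLM 3 stood apart, with counts on 6847 genes against 8790 to 13838 elsewhere and rank correlations across genes of 0.530 and 0.535 with the other BLM libraries against 0.746 to 0.898 for all other pairs within a group. The summed CPM of 12 pluripotent-cell genes, led by Dppa5a, Tet1 and Lin28a, was 2540 in BLM 3 and 0.65 to 18.0 in the others, while Zfp42, Esrrb and Fgf4 of that list had no counts in any library. KO 3, KOBLM 2 and Con 3 followed with 8790, 9018 and 10246 genes. Ep300, the p300 gene, had 141, 143 and 51.0 CPM in Con and 145, 154 and 103 CPM in KO, but a read of the 3′ end lies outside the deleted exon and so does not check the knockout.

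Promoters of 7 of the 10 genes were found in the RefSeq table of GRCm38.p6, which gave 9 promoters. Endothelial promoters are known to hold sites for ETS factors, so AGGAAG was searched on both strands (as AGGAAG or CTTCCT) in the 250 bases before each start. It was present in 5 of these 9 promoters, belonging to Tie1, Egfl7, Eng and Emcn, and in 29.5% of all 32851 promoters of the same length. More than 1 of the promoters came from Egfl7, and by gene 4 of 7 held a match. A match is only a run of letters and shows no binding, and no match in this window says nothing about the factor. Of the genes described below, 1 junction gene and 2 receptor genes are printed, 5′ to 3′ along the gene's own strand, with matches in capitals. They lie on the plus strand at chr16:18776597-18776846 (Cldn5), chr4:94739039-94739288 (Tek) and chr2:32646345-32646594 (Eng).
Cldn5: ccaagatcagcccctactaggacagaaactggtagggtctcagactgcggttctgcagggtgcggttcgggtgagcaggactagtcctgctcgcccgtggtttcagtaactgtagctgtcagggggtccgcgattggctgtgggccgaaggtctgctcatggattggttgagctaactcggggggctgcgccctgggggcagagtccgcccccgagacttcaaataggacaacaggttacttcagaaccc
Tek: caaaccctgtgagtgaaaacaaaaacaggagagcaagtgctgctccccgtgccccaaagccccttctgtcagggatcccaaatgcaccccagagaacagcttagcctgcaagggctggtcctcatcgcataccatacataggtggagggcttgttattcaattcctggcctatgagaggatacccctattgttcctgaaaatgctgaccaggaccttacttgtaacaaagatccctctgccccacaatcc
Eng: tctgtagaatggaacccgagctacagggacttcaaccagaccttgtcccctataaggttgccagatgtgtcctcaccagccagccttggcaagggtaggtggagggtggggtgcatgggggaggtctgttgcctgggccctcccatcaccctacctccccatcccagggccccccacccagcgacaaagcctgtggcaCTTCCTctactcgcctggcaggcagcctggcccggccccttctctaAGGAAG
Eng held 2 matches, which began 52 and 6 bases before the start, and Cldn5 and Tek held none.

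All 10 genes were detected in the sorted cells, and their level varied widely between mice of the same group. Their summed CPM was 645, 1069 and 933 in Con, 839, 376 and 277 in BLM, 503, 74.6 and 100.1 in KO, and 1777, 331 and 308 in KOBLM. The lowest and highest libraries, KO 2 and KOBLM 1, rested on 543 and 13280 counts, with exact (Clopper-Pearson) 95% binomial intervals of 68.4 to 81.1 CPM and 1747 to 1808 CPM that cover counting error only. The genes made up 0.0075% to 0.178% of all counts. With Rn45s left out of the totals, KO 2 and KOBLM 1 were still the lowest and highest, at 95.1 and 2076 CPM. In RNA from bulk cells, fewer endothelial cells carried into the sort, less RNA per endothelial cell and fewer genes detected in a library cannot be told apart.

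**Figure D1:**
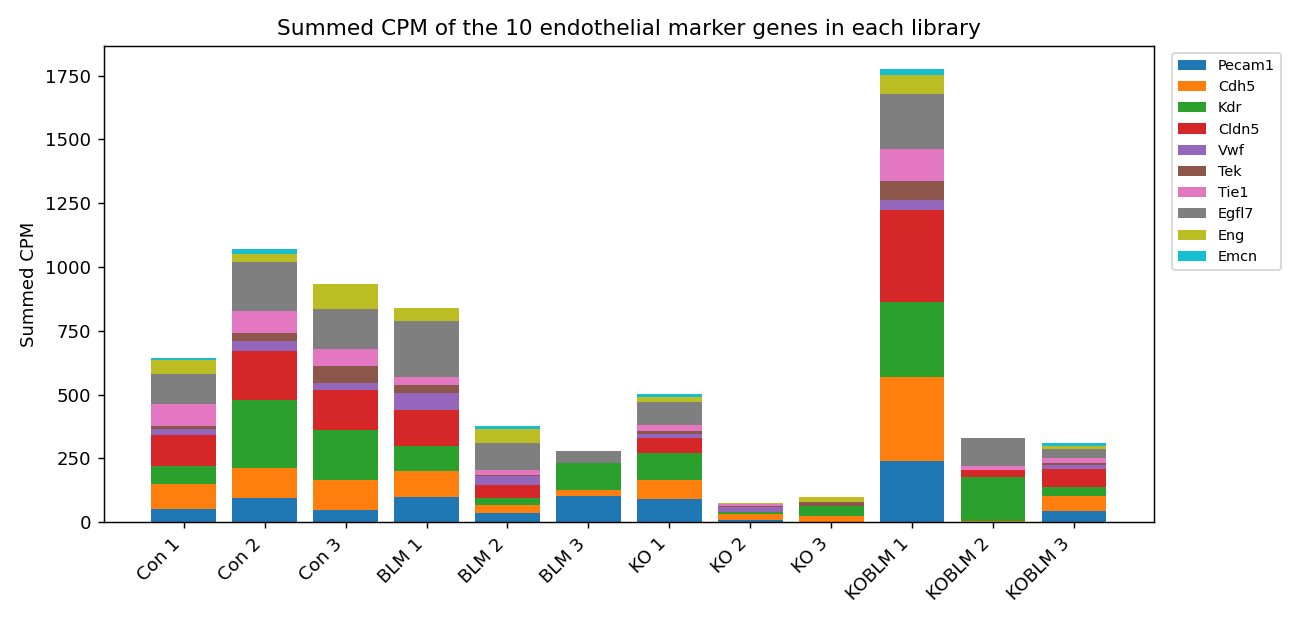
Summed CPM of the 10 endothelial marker genes in each of the 12 libraries, stacked by gene. KOBLM 1 reached 1777 CPM, and KO 2 and KO 3 stayed at 74.6 and 100.1 CPM.

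The group means of the sum were 882 ± 217 CPM in Con, 497 ± 300 in BLM, 226 ± 240 in KO and 806 ± 841 in KOBLM (SD, n = 3 in each). Con libraries were all above the KO libraries, and the mean was 3.91 times as high in Con as in KO. In both KO and KOBLM the SD exceeded the mean, with 1 library of each group far above the other 2. KOBLM 2 and KOBLM 3 lay between KO 1 and KO 3 and beside BLM 2 and BLM 3.

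Among the junction genes, Cdh5, the adhesion molecule of endothelial adherens junctions (chromosome 8, 104101625 to 104144511, plus strand, here and below the GRCm38 gene span), was the only one of the 10 with counts in every library besides Kdr. It had 97.9, 116 and 118 CPM in Con, 102, 32.7 and 24.7 in BLM, 75.0, 22.4 and 23.3 in KO, and 330, 3.76 and 57.0 in KOBLM. The Con libraries were close to each other and above all KO libraries, and BLM 1 reached them while BLM 2 and BLM 3 did not. The means were 111 ± 11.1, 53.0 ± 42.3, 40.2 ± 30.1 and 130 ± 175 CPM in Con, BLM, KO and KOBLM.

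Cldn5, the main claudin of endothelial tight junctions (chromosome 16, 18776847 to 18778262, plus strand), had 119, 190 and 156 CPM in Con. It had 144, 51.6 and 0 CPM in BLM and 59.7, 1.37 and 0 in KO, where KO 2 rested on 10 counts. KOBLM libraries had 357, 24.2 and 68.3 CPM. All Con values were above all KO values, with means of 155 ± 35.4 and 20.4 ± 34.1 CPM, a ratio of 7.61, and BLM overlapped both groups.

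Pecam1, the CD31 adhesion protein that platelets and leukocytes also carry (chromosome 11, 106654217 to 106750628, minus strand), did not share this pattern in every library. It had 51.9, 95.9 and 46.7 CPM in Con, 96.9, 35.9 and 102 in BLM, 90.9, 8.93 and 0 in KO, and 239, 0.48 and 45.1 in KOBLM. Its value in BLM 3, 1138 counts, was the second highest of all libraries, whereas Cldn5 had no count there. The groups overlapped in every comparison.

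**Figure D2:**
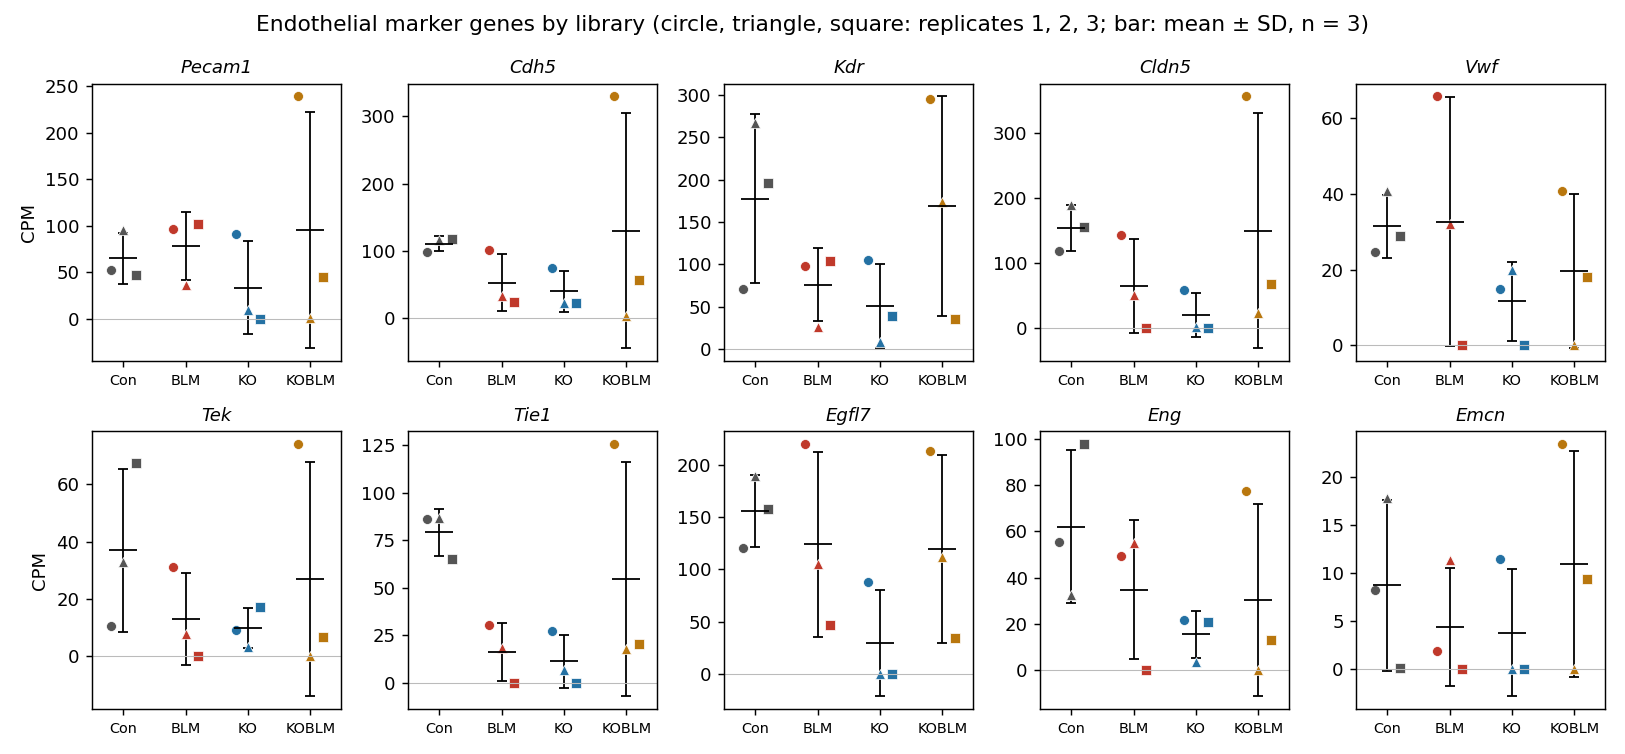
CPM of each of the 10 genes in the 12 libraries, by group, with the mean and SD of 3 mice. In 7 of the 10 panels KOBLM 1 is the highest point, and 18 of the 120 points are at 0.

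Of the receptors, Kdr, the main signalling receptor for VEGF-A (chromosome 5, 75932827 to 75978458, minus strand), was the other gene with counts in every library. It had 70.8, 267 and 195 CPM in Con, 97.8, 26.4 and 104 in BLM, 106, 8.24 and 38.8 in KO, and 295, 174 and 36.1 in KOBLM. Kdr followed the other genes least, with a Pearson r of 0.47 over the 12 libraries between its log2(CPM + 1) and the mean of the other 9. Its 1806 counts in KOBLM 2 stood beside 5 counts of Pecam1 and none of Tek, Vwf, Eng or Emcn.

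Tie1, an orphan receptor that modulates Tie2 signalling (chromosome 4, 118471191 to 118490061, minus strand), was the only one of the 10 whose Con values were apart from both BLM and KO. It had 86.0, 86.7 and 64.8 CPM in Con, against 30.6, 18.2 and 0 in BLM and 27.0, 6.87 and 0 in KO. Con averaged 79.2 ± 12.4 CPM, 4.87 times the BLM mean of 16.3 ± 15.4 and 7.02 times the KO mean of 11.3 ± 14.0. KOBLM had 126, 17.4 and 20.3 CPM, so that 1 library was above Con and the other 2 were within the range of BLM.

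Tek, the receptor for angiopoietins (chromosome 4, 94739289 to 94874976, plus strand), had 10.6, 32.8 and 67.4 CPM in Con and 31.0, 7.65 and 0 in BLM. KO had 9.02, 3.30 and 17.1 CPM, and KOBLM 74.1, 0 and 6.76. Con itself spanned more than the distance between most groups, and no comparison was free of overlap. Eng (chromosome 2, 32646595 to 32682669, plus strand) had 55.5, 32.5 and 97.9 CPM in Con, 49.5, 55.0 and 0 in BLM, 21.8, 3.57 and 20.9 in KO, and 77.7, 0 and 13.0 in KOBLM. Eng was lower in every KO library than in every Con library, with means of 15.4 ± 10.3 and 62.0 ± 33.2 CPM.

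Of the secreted and surface products, Egfl7 (chromosome 2, 26580014 to 26593120, plus strand) was lowest in KO. It had 120, 190 and 158 CPM in Con, 220, 105 and 46.4 in BLM, 87.7, 0 and 0 in KO, and 214, 112 and 34.1 in KOBLM. KO 2 and KO 3 had no count, while Con and KO averaged 156 ± 34.8 and 29.2 ± 50.6 CPM. By counting error alone, a count of 0 allows a level of up to 3 counts, which is 0.269 to 0.428 CPM depending on the library. Of the 120 values of the 10 genes, 18 were 0, 3 were 1 to 10 and 99 were over 10. Few values thus lay between 0 and well counted, and the bound is not a limit on the true level in the cells.

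Vwf (chromosome 6, 125546774 to 125686679, plus strand), which megakaryocytes also make, was highest in BLM 1. It had 24.7, 40.7 and 29.0 CPM in Con, 65.8, 32.2 and 0 in BLM, and 40.7, 0 and 18.1 in KOBLM, and KO had 148, 145 and 0 counts. BLM 1 also had the highest summed CPM of 10 platelet and megakaryocyte genes, 1160 against 28.7 to 301 in the other libraries, led by Pf4, Ppbp and Itga2b, while Gp6 of that list had no count anywhere. The part of such cells in the Vwf value was not tested. Emcn (chromosome 3, 137341067 to 137432185, plus strand) was low throughout, with 8.29, 17.9 and 0.09 CPM in Con, 1.86, 11.3 and 0 in BLM, 11.5, 0 and 0 in KO, and 23.4, 0 and 9.42 in KOBLM, and the value of Con 3 was a single count.

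In the libraries with zeros the mix of the 10 transcripts differed from that of the others. The zeros were 6 genes in BLM 3, 6 in KO 3, 4 in KOBLM 2 and 2 in KO 2, and no gene was at 0 in the other 8 libraries. In BLM 3, Kdr and Pecam1 made up 74.4% of the counts on the 10 genes. In KOBLM 2, Kdr and Egfl7 made up 86.2%. In KO 3 the counts fell on Kdr (38.7%), Cdh5 (23.3%), Eng (20.9%) and Tek (17.1%), and KO 2 was led by Cdh5 (30.0%) and Vwf (26.7%). In the other 8 libraries the top pair took 37.1% to 43.4%. Expressed as the share of member counts that would have to move to another gene to match the pooled other 11 libraries, the difference was 44.6% in BLM 3, 44.0% in KO 2, 57.2% in KO 3 and 50.4% in KOBLM 2, against 9.97% to 26.9% in the others. A gene at 0 by itself raises both the share of the top pair and this difference. Because these libraries were set apart by their zeros, neither measure is a result separate from the zeros. Over the 12 libraries all 45 pairs of genes had a positive Pearson r of log2(CPM + 1), from 0.04 to 0.96 with a median of 0.63. These points share library composition and the number of genes detected, and no test was made.

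The fit across 13054 genes had wide errors, and the fitted values of the 10 genes, like their counts below, describe contrasts whose results were known when the genes were picked, so nothing is read from those counts. A gene was called at a fold change over 1.5 with an unadjusted p under 0.05 in edgeR's quasi-likelihood test, and no gene of the 13054 reached an adjusted p under 0.05 in any comparison, while DESeq2 gave 57 to 114 such genes. For bleomycin in mice without the deletion (BLM against Con), 4.27% of all genes were called and 0 of the 10 members. The median log2 fold change was -0.92 for the members and -0.08 for all genes, and 8 of 10 members were below 0, as were 52.5% of all genes. Tie1 (-2.16, SE 1.83), Tek (-1.40, SE 2.07), Kdr (-1.29, SE 0.92) and Cldn5 (-1.15, SE 1.88) had the lowest values, and Pecam1 (0.22, SE 1.67) and Vwf (0.16, SE 2.17) were above 0. Tie1 was the only member without overlap, and it was lower, as 11.8% of all genes were. Without BLM 3 the median of the members was -0.41 with 3 above 0, and without BLM 1 it was -1.30 with none above 0.

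For the deletion in PBS-treated mice (KO against Con), 1.44% of all genes were called and 0 of the members. All 10 members were below 0, as were 54.5% of all genes, with a median of -1.81 against -0.09 over all genes. Cldn5 had -2.81 (SE 1.99), Tie1 -2.66 (SE 1.87), Egfl7 -2.31 (SE 1.73) and Pecam1, the nearest to 0, -0.84 (SE 1.68). Cdh5, Cldn5, Vwf, Tie1, Egfl7 and Eng, 6 of the 10, were lower without overlap, beside 7.56% of all genes. Without KO 1 the median was -3.26, since KO 2 and KO 3 alone then stood for the group.

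For the deletion under bleomycin (KOBLM against BLM), 3.16% of all genes were called and 0 of the members. The median was 1.15 for the members and 0.10 for all genes, with 7 of 10 members and 52.9% of all genes above 0. Tie1 had 1.73 (SE 1.81), Cdh5 1.36 (SE 1.12) and Kdr 1.29 (SE 0.92), while Vwf had -0.72 (SE 2.18), Eng -0.23 (SE 1.87) and Egfl7 -0.03 (SE 1.65). This direction rested on KOBLM 1: without it the median was -0.70 and only Emcn, Kdr and Tie1 were above 0, and without BLM 3 the median was 0.57. No member was free of overlap, beside 11.0% of all genes.

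For bleomycin in mice with the deletion (KOBLM against KO), 1.69% of all genes were called and 0 of the members. All 10 members were above 0, as were 53.8% of all genes, with a median of 1.63 against 0.08, led by Cldn5 (2.88, SE 1.99), Tie1 (2.23, SE 1.84) and Egfl7 (2.01, SE 1.71). Without KOBLM 1 the members split into 5 above and 5 below 0, and without KO 1 the median was 3.37. No member was free of overlap, beside 6.82% of all genes. These 4 comparisons share libraries in pairs, so that a low KO group enters both comparisons with KO. In the difference between the effects of bleomycin with and without the deletion, which uses all 4 groups, 2.82% of all genes were called and 1.51% were called above 0, and 1 of the 10 members, Kdr (3.03, SE 1.31), was past the same threshold, from which nothing is read.

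**Figure D3:**
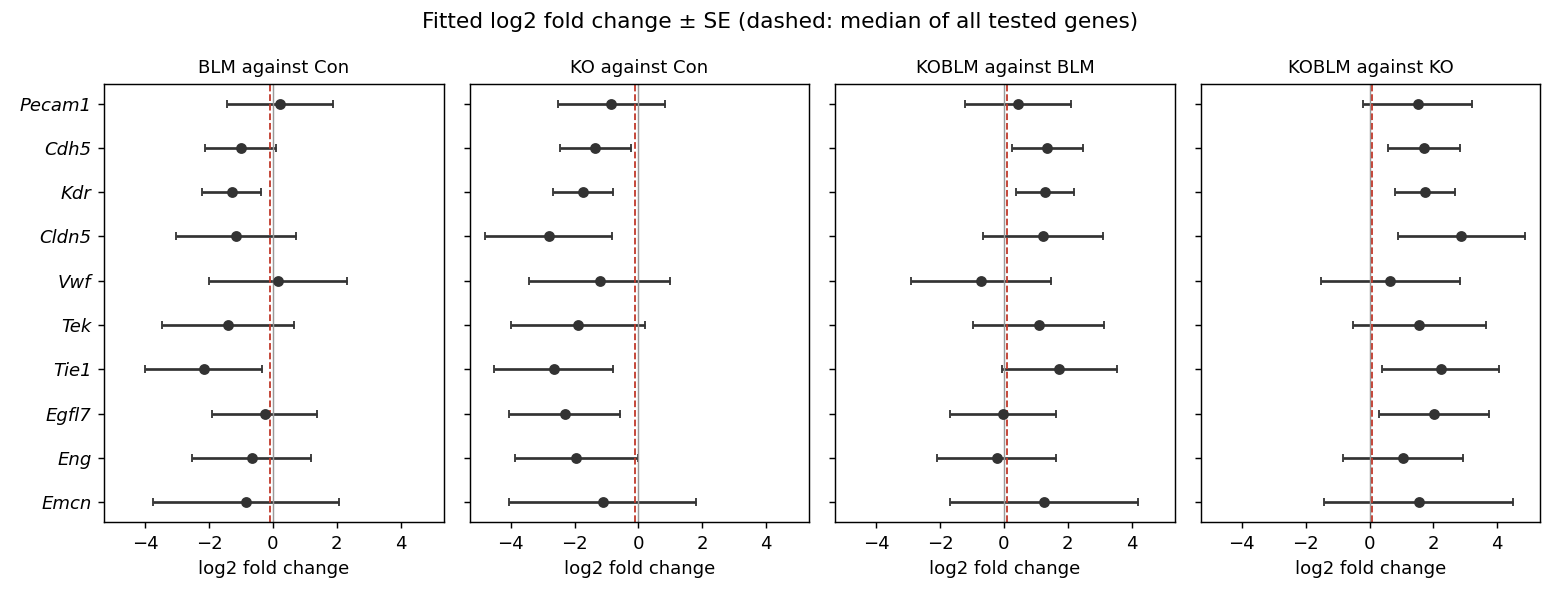
Fitted log2 fold change of each of the 10 genes with its standard error in the 4 comparisons, beside the median of all 13054 genes (dashed line). All 10 points are below 0 in KO against Con and above 0 in KOBLM against KO, and most error bars span several log2 units.

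Other genes known from endothelium were also described, 36 in all. This list, like the members, was chosen with earlier results of these data known, so its values are no independent support for theirs. The summed CPM of the 36 genes was 2457, 3281 and 3347 in Con, 2824, 1601 and 415 in BLM, 1843, 827 and 1123 in KO, and 4962, 1921 and 1572 in KOBLM. KO libraries were all below Con, KOBLM 1 was again the highest and BLM 3 the lowest. The share of the 36 genes with a count was 33.3% in BLM 3 and KO 3, 55.6% in KOBLM 2, 66.7% in KO 2 and 86.1% to 97.2% elsewhere, while the share of all genes with a count was 29.5% in BLM 3, 37.8% in KO 3, 38.8% in KOBLM 2 and 44.1% to 59.5% elsewhere. Of 34 genes tested, 26 were below 0 in BLM against Con and 30 in KO against Con, and 31 were above 0 in KOBLM against BLM and 32 in KOBLM against KO, beside 52.5%, 54.5%, 52.9% and 53.8% of all genes. The medians were -0.65, -1.59, 0.98 and 1.68. Without BLM 3 the median of BLM against Con was -0.11, with 19 of 35 genes below 0, and that of KOBLM against BLM 0.39. Without KOBLM 1 the median was -0.18 in KOBLM against BLM, with 15 of 34 above 0, and 0.19 in KOBLM against KO, with 20 of 34 above 0. Without KO 1 the medians of KO against Con and KOBLM against KO were -2.46 and 2.68.

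**Figure D4:**
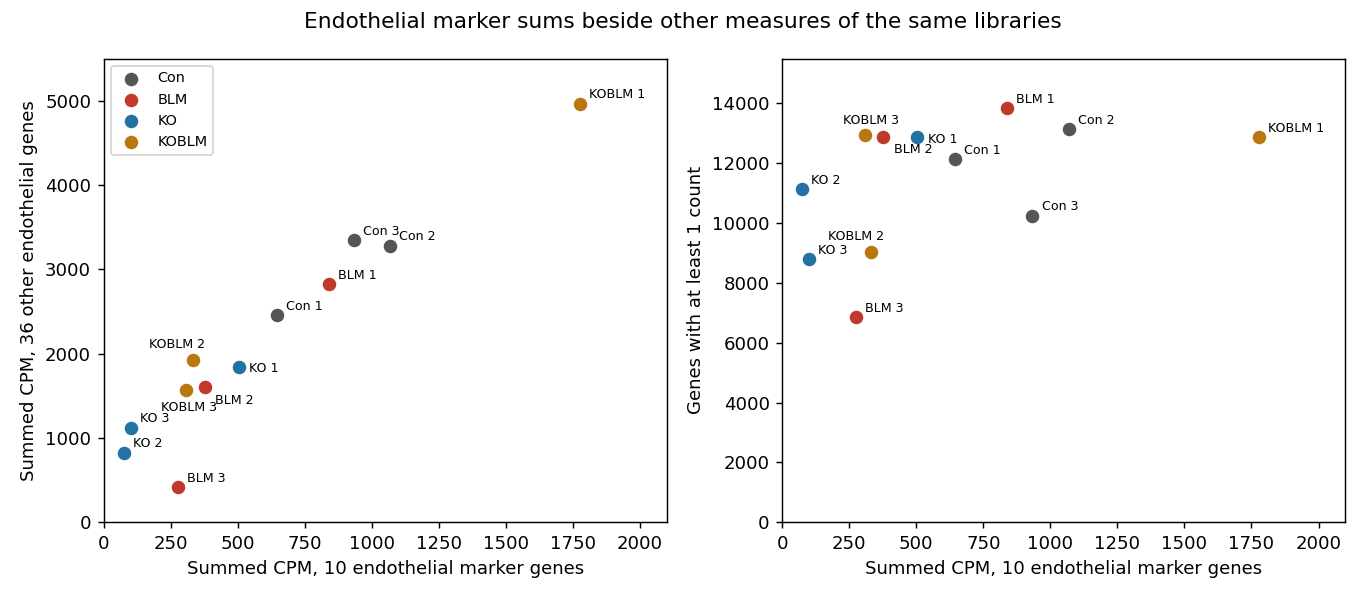
Summed CPM of the 10 marker genes in each library against the summed CPM of the 36 other endothelial genes (left) and against how many genes had a count at all (right). KOBLM 1 is highest on both endothelial sums, and BLM 3 has the fewest genes at 6847.

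Few of these 34 genes were called, and none had an adjusted p under 0.05 in edgeR or DESeq2. The call was made for 1 gene that was lower in BLM against Con, beside 2.08% of all genes, Car4, a carbonic anhydrase on the capillary surface, typical of aerocytes. It had 548, 408 and 438 CPM in Con and 139, 214 and 167 in BLM, without overlap, a log2 fold change of -1.39 (SE 0.55, edgeR adjusted p = 0.995), and the call was lost without Con 1 or BLM 1. Car4 had 439, 210 and 340 CPM in KO and 472, 691 and 138 in KOBLM, and it was also called higher in KOBLM against BLM (1.36, SE 0.55, edgeR adjusted p = 1.0), a call lost without KOBLM 2, KOBLM 1 or BLM 1. In BLM 3, where 6 members had no count, Car4 had 1860 counts. Which cells the Car4 counts came from was not tested.

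In KO against Con 1 gene was called lower, beside 0.904% of all genes. It was Lyve1, a hyaluronan receptor of lymphatic endothelium that some macrophages also carry. It had 39.5, 87.0 and 215 CPM in Con and 24.5, 5.22 and 0 in KO, a log2 fold change of -3.35 (SE 1.38, edgeR adjusted p = 1.0), lost without Con 3 or KO 2. KOBLM had 179, 145 and 36.6 CPM, all above KO, and Lyve1 was the 1 gene called higher in KOBLM against KO, beside 1.16% of all genes (3.53, SE 1.39, edgeR adjusted p = 1.0), lost without KO 2 or KOBLM 1. BLM had 308, 313 and 88.9 CPM. Aplnr, the apelin receptor, completed the 2 genes called higher in KOBLM against BLM, beside 1.39% of all genes, on 208, 0 and 117 counts against 0 in all BLM libraries (edgeR adjusted p = 1.0), and the call was lost when any BLM library, KOBLM 1 or KOBLM 3 was left out.

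The most abundant of the other endothelial genes after Car4 did not all follow the members. Cd93, a C-type lectin of endothelium and myeloid cells, had 155, 323 and 441 CPM in Con, 408, 302 and 0.18 in BLM, 109, 245 and 98.7 in KO and 625, 121 and 510 in KOBLM. Flt1, VEGF receptor 1, had 453, 376 and 257 CPM in Con, 145, 25.3 and 0.09 in BLM, 238, 70.5 and 197 in KO and 270, 262 and 79.3 in KOBLM, so that Con did not overlap BLM or KO. Ptprb, the phosphatase VE-PTP, had 235, 365 and 170 CPM in Con, 300, 66.4 and 8.61 in BLM, 142, 4.94 and 54.0 in KO and 569, 117 and 187 in KOBLM. Calcrl, a receptor for adrenomedullin, had 210, 310 and 389 CPM in Con, 212, 49.5 and 23.0 in BLM, 173, 14.3 and 98.9 in KO and 530, 78.7 and 88.1 in KOBLM. Without overlap, 5 of the 34 were lower in BLM (Icam2, Flt1, Car4, Ednrb and Apln) beside 11.8% of all genes. In KO 13 were lower beside 7.56% of all genes, and 1, the kinase gene Bmx, was higher with 49.3, 27.2 and 81.7 CPM against 14.2, 18.7 and 23.5 in Con, beside 2.18% of all genes.

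Ligands and co-receptors of the vessel pathways made a separate list of 18 genes, of which 15 were tested. This list too was chosen with earlier results of these data known. Below 0 were 10 of 15 in BLM against Con and 10 in KO against Con, and above 0 were 11 in KOBLM against BLM and 9 in KOBLM against KO, beside 52.5%, 54.5%, 52.9% and 53.8% of all genes. The medians were -1.16, -0.41, 0.54 and 0.26 for the list and -0.08, -0.09, 0.10 and 0.08 for all genes. Of these genes 1 was called lower in BLM, 1 lower in KO, 1 higher and 1 lower in KOBLM against BLM and 1 higher in KOBLM against KO, beside 2.08%, 0.904%, 1.39%, 1.78% and 1.16% of all genes. Nrp1, a co-receptor for VEGF and semaphorins that macrophages also carry, had 484, 488 and 682 CPM in Con and 178, 98.9 and 90.8 in BLM, with no overlap and a log2 fold change of -2.12 (SE 0.58, edgeR adjusted p = 0.995). Leaving out any one library did not end this call. Nrp1 had 336, 246 and 288 CPM in KO and 570, 133 and 274 in KOBLM, and it was called higher in KOBLM against BLM (1.49, SE 0.57, edgeR adjusted p = 1.0), a call lost without KOBLM 1 or BLM 2.

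The other calls rested on few counts or mainly on 1 library. Figf (VEGF-D) had 15, 145 and 0 counts in Con, 0 in all KO libraries and 68, 0 and 70 counts in KOBLM, and it was called in KO against Con (edgeR adjusted p = 1.0) and in KOBLM against KO (edgeR adjusted p = 1.0). Each call was lost in 9 of the 12 fits that left out 1 library. Tgfb3, a TGF-β ligand, was called lower in KOBLM, with 0 counts in all 3 libraries against 25, 1 and 529 counts in BLM (edgeR adjusted p = 1.0), and the call was lost without BLM 3 or without any 1 KOBLM library. Of the TGF-β and BMP receptor genes, Tgfbr2 had 308, 193 and 264 CPM in Con, 106, 165 and 46.2 in BLM, 314, 153 and 406 in KO and 114, 176 and 172 in KOBLM. Bmpr2 had 202, 246 and 177 CPM in Con, 159, 82.4 and 34.5 in BLM, 144, 34.5 and 84.9 in KO and 201, 68.5 and 120 in KOBLM. Tgfbr1 ranged from 52.5 to 225 CPM and Nrp2 from 0.09 to 279 CPM, and Angpt4 had no count in any library.

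Across 8968 genes with a mean of at least 10 CPM, those whose log2(CPM + 1) was most like the mean of the 10 members over the 12 libraries were Ccm2l (Pearson r 0.99, Spearman rho 0.95), Ptprg (0.98, 0.94), Bcam (0.98, 0.91), Icam2 (0.98, 0.90), Crip2 (0.97, 0.96), Ushbp1 (0.97, 0.84), Myct1 (0.96, 0.97) and Ptprm (0.96, 0.93). Icam2, an adhesion ligand for leukocytes, was on the list of other endothelial genes, and the other 7 were not. All 8 were at 0 in at least 2 libraries, and r stayed between 0.95 and 0.98 without BLM 3 and KO 3, the 2 libraries farthest from the median. The other endothelial genes had a median r of 0.71 over 24 genes, and 20 of them exceeded 0.5, as did 18.6% of all genes searched, whose median was 0.25. The median was 0.36 for 10 ATII genes, 0.33 for 5 leukocyte genes, 0.23 for 17 macrophage genes, 0.51 for 2 platelet genes, 0.25 for 8 vessel ligand and co-receptor genes, 0.04 for 6 mesenchymal genes and -0.31 for 6 pluripotent-cell genes. These are descriptions over libraries that share depth and composition.

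Marker sums of other cell types are given beside the endothelial sum. ATII genes summed to 1337, 2252 and 756 CPM in Con, 459, 531 and 905 in BLM, 795, 186 and 829 in KO and 693, 372 and 187 in KOBLM, with means of 1448 ± 754, 631 ± 239, 603 ± 361 and 417 ± 256 CPM (SD, n = 3). The ATII mean, like the endothelial mean, was thus lower in BLM and KO than in Con. In KOBLM the ATII mean was the lowest of the 4 groups, while the endothelial mean was 806 CPM. Of 11 ATII genes tested, 9 were below 0 in BLM against Con (median -2.10) and 9 in KO against Con (median -1.09), beside 52.5% and 54.5% of all genes. Called lower were 3 and 0 of them, beside 2.08% and 0.904% of all genes. In KOBLM against KO 8 of 11 were below 0 (median -0.68), beside 45.6% of all genes. Epcam, one of the sorting markers, ranged from 2.75 to 329 CPM. Mesenchymal genes, led by Col1a2, Col1a1 and Col3a1, summed to 1141 to 1925 CPM in BLM and to 45.1 to 679 in the other groups. Leukocyte genes, led by S100a9, S100a8 and Ptprc, summed to 1024 to 1160 CPM in KO and 1771 to 2719 CPM in KOBLM, while Con spanned 815 to 4261 CPM and BLM 170 to 5632 CPM. Macrophage genes summed to 17370, 15261 and 29118 CPM in Con and 11784, 14478 and 1307 in BLM. They summed to 23033, 16423 and 45061 CPM in KO and 11657, 25247 and 27279 in KOBLM. The part of these cell types in the endothelial values was not tested.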

How the data were processed

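RNA of sorted ATII cells from 12 mice was sequenced on a NextSeq 500 after library preparation with a 3′ QuantSeq kit. The authors deposited raw counts per gene symbol for each library. The submitters' processing notes name Bowtie2, edgeR and mm10 without roles or versions, and the steps that made the counts are not given in the sources used here. How reads shared by similar genes or by overlapping genes were assigned was not stated.

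Entries of one symbol were summed (79 entries of 35 symbols). Counts came from 12 libraries with totals of 7005005 to 11153154, and a floor of 3 counts was used for low values, which covers counting error only. Genes were filtered with filterByExpr (minimum count 10, minimum total 15; 13054 kept), scaled by TMM (factors 0.84 to 1.26) and fitted with edgeR 4.0.16 quasi-likelihood over the 4 groups, with 8 residual degrees of freedom and a biological coefficient of variation of 1.44. Calls used a fold over 1.5 and an unadjusted two-sided p under 0.05, with Benjamini-Hochberg adjusted values over all genes. The standard error (SE) of a fitted value was derived from the test. It is the absolute log2 fold change divided by the square root of the quasi-likelihood F statistic. The code was tested on simulated data. The 3′ kit needs no length correction. Gene spans came from GENCODE M21 and promoters from RefSeq (GRCm38.p6).

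Alternatives were DESeq2 1.42.0 size factors or test, library size alone, no filter, the replicate number as a block and the omission of each library. Mice are taken as separate replicates from the study's n of 3 per group.

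Members and gene lists were chosen with earlier results of these data known. The text names all 10 members, every called gene and the 5 highest of the other endothelial and vessel lists, the 3 highest and any with no count of the other lists, and the 8 genes most like the members. Genes named for groups that did not overlap were added after their values were seen. R 4.3.3 and Python 3.11.15 were used.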

Additional observations from a re-analysis of the deposited data

Results flagged for a closer look

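Car4 and Nrp1 were flagged because the effect of bleomycin differed between mice with and without the deletion, by the interaction term of the edgeR fit. For Car4 the interaction was 1.76 on the log2 scale (SE 0.77, edgeR adjusted p = 1.0), with -1.39 in BLM against Con and 0.38 in KOBLM against KO, and the call was lost in 8 of the 12 fits that left out 1 library. For Nrp1 the interaction was 2.30 (SE 0.80, edgeR adjusted p = 1.0), with -2.12 in BLM against Con and 0.18 in KOBLM against KO, and without KOBLM 1 it was 1.66, no longer past the call. Neither interaction passed the correction over 13054 genes.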

How the results depend on the processing

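The 10 members kept the sign of their median under TMM, DESeq2 size factors, library size alone, no filter, the replicate block and the DESeq2 test in all 5 contrasts, and of the 12 omissions only that of KOBLM 1 turned the sign, moving the median of KOBLM against BLM to -0.70 and that of KOBLM against KO to -0.00. Low counts limit Emcn most, and 18 of 120 member values are at 0. The number of genes called with DESeq2 was 947 in BLM against Con (558 with edgeR), 374 in KO against Con (188), 755 in KOBLM against BLM (413), 460 in KOBLM against KO (221) and 625 in the interaction (368). No filter gave 645 in KOBLM against BLM and 706 in the interaction. The replicate block gave 100 in KO against Con, 262 in KOBLM against BLM, 100 in KOBLM against KO and 242 in the interaction, although the sources used here do not state that the numbers pair the mice. The deviations of 18 same-numbered pairs correlated from -0.12 to 0.10, and 0 exceeded 0.1. The 36 other pairs between groups ranged from -0.10 to 0.15. With 3 libraries per group this check cannot exclude pairing. Under the block the calls of Figf (KO against Con and KOBLM against KO), Aplnr and Tgfb3 (KOBLM against BLM) and the interaction of Car4 were lost. Of the other endothelial genes, the calls in BLM against Con (1) became 2 with no filter, 4 with the block and 3 with DESeq2; in KO against Con (1) they became 2 with no filter and 4 with the block; in KOBLM against KO (1) they became 2, 2 and 3 with no filter, the block and DESeq2; in the interaction (1) they became 2 with DESeq2 size factors or library size alone, 6 with no filter, 3 with the block and 4 with the DESeq2 test. The cause of these shifts was not tested. Leaving out 1 library at a time gave 292 (without Con 1) to 767 (without BLM 3) genes in BLM against Con, 88 (KO 2) to 446 (KO 1) in KO against Con, 236 (KOBLM 2) to 471 (BLM 3) in KOBLM against BLM, 105 (KO 3) to 433 (BLM 3) in KOBLM against KO and 332 (Con 1) to 672 (KO 1) in the interaction, and 0 to 3, 0 to 8, 0 to 4, 0 to 9 and 0 to 11 of the other endothelial genes in the same order, with the highest of KO against Con, KOBLM against KO and the interaction without KO 1. No called value changed sign, and 52 values of called single genes lost their call, 1 alternative at a time.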
